A study of Mus musculus with 2 samples.

Results

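The hairpin genes described here are 9 miRNA genes best known from kidney, gut and skin epithelium, outside the miR-200 family, of 2202 miRNA genes in the tables: Mir31, Mir203, Mir205, Mir192, Mir215, Mir194-1, Mir194-2, Mir204 and Mir211. The list was set by tissue and not by a measured value, though with earlier results of these data known. All 9 were found by identifier in GENCODE M21. Adrenal glands, each a steroid-producing cortex around a catecholamine-producing medulla, were taken from female B6CASTF1/J mice, an F1 hybrid strain, aged 2 months. The labels gave 1 group of 2 biological replicates, numbered as different females but both under 1 donor label, and named no treatment, genotype change or control. The SDs therefore measure the spread between these samples, and there was no contrast between conditions.

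A miRNA gene is transcribed into a hairpin, from which a short mature strand is cut and loaded into Argonaute, where its seed, bases 2 to 8, pairs with target mRNAs. miR-31, miR-203 and miR-205 are known from the layered epithelium of the skin, where miR-203 restrains the proliferation of differentiating keratinocytes and miR-205 marks basal and progenitor cells. miR-192, miR-194 and miR-215 come from a pair of small clusters active in kidney tubule and gut epithelium, and both clusters have been described as targets of the tumour suppressor p53. miR-204 is known from kidney and retinal pigment epithelium, and miR-211 from pigment cells. None of this background was measured here.

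The mature sequences decide which of these genes can be told apart by their reads. They are printed from RefSeq (GRCm38.p6), which held mature sequences for all 9 genes, 5′ to 3′, with the seed in capitals. The first set shows the strand best known for each of the single genes, whose hairpins had no stretch of 20 bases in common with another RefSeq hairpin.
miR-31-5p: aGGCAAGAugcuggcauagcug
miR-203-3p: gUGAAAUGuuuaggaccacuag
miR-205-5p: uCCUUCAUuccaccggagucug
The second set shows the pairs that share a seed, which bear on how the kidney and gut genes were counted.
miR-192-5p: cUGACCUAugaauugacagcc
miR-215-5p: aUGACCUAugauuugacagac
miR-204-5p: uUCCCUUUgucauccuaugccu
miR-211-5p: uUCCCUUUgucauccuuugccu
The third set shows the products of the miR-194 hairpins, of which the 5p strand is the same from both genes and the 3p strands differ.
miR-194-5p: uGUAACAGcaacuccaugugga
miR-194-1-3p: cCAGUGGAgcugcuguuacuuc
miR-194-2-3p: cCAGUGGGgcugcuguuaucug
Counted from the 5′ end, miR-215-5p differs from miR-192-5p by C1A, A12U and C20A, and miR-211-5p from miR-204-5p by A17U. The miR-194 3p strands differ by A8G, C19U, U20C and C22G, with the strand of Mir194-1 given first, so A8G falls in the last base of the seed. No other mature miRNA among the 1679 names of the RefSeq table carried the seed of miR-31-5p, miR-203-3p, miR-205-5p or miR-194-5p, while that of miR-204-5p and miR-211-5p also occurs in miR-7670-3p.

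Counts on the strand of the gene totalled 2839732 in replicate 1 and 2280028 in replicate 2, and were scaled to CPM, counts per 1000000 gene counts, in which a single count was worth 0.352 and 0.439 CPM. Where no read was found, up to 3 counts remain possible, which corresponds to 1.06 and 1.32 CPM. Reads aligned to several places, 28.8% and 25.3% of all reads, were assigned to no gene, and unmapped reads made up 29.8% and 39.7%. Since a read spans a mature miRNA, CPM was not divided by hairpin length. The tables hold miRNA genes alone, so the tissue label was not checked against adrenal mRNAs. Of the fixed marker lists, the endothelial list, Mir126a alone, held the most, 4.32% and 5.95% of the gene counts. The neuroendocrine miRNAs, led by Mir375, held 4.28% and 4.01%, and the kidney list 3.39% and 3.90%. Mir10a alone held 95944 and 88602 of the 96269 and 88833 counts of the kidney list. In whole tissue, fewer cells of a type and less RNA per cell cannot be told apart.

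The first question was how much of the adrenal profile these genes make up. Together they held 13895 counts in replicate 1 and 8788 in replicate 2, or 0.489% (exact Clopper-Pearson 95% interval 0.481 to 0.497) and 0.385% (0.377 to 0.394) of the gene counts, with a mean of 0.437% ± 0.0734 (SD, n = 2). Mir31 and Mir203 accounted for nearly all of these counts. The other 7 genes held 346 and 244 counts, which is 122 and 107 CPM for the 7 together. Reads within miR-194-5p, which is identical in both miR-194 hairpins, align to both and are in none of these counts. The share of the 9 genes and that of the 7 leave them out. With detection set at 10 or more counts in both libraries, 5 of the 9 genes were detected (Mir31, Mir203, Mir194-2, Mir204 and Mir192), against 342, or 15.5%, of all 2202 genes. Of the other 4, Mir215, Mir205 and Mir194-1 had counts in both libraries and Mir211 in 1 of them.

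**Figure D1:**
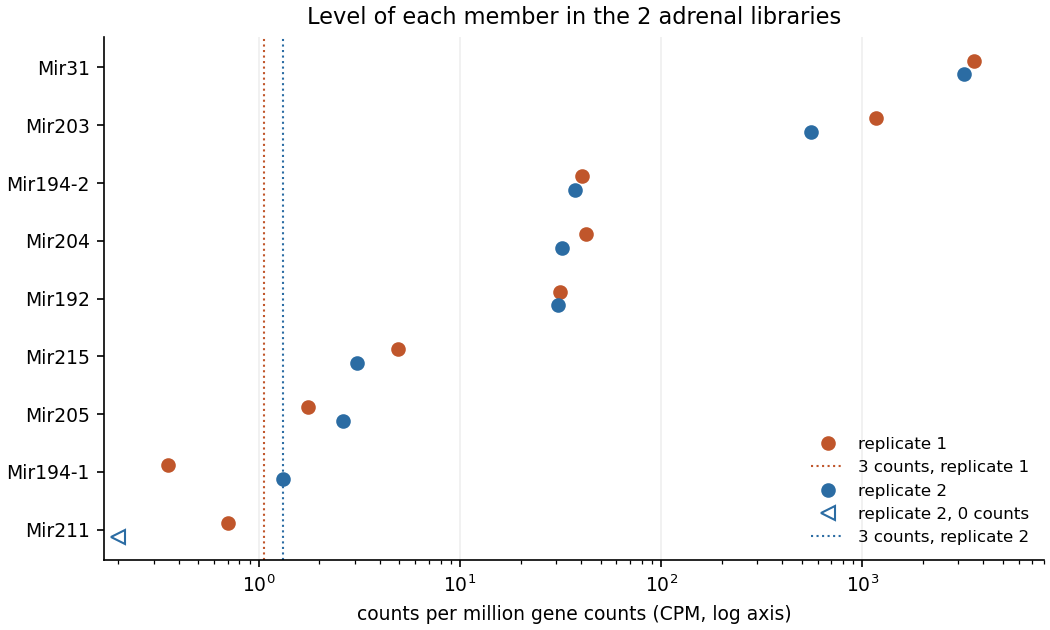
Level of each of the 9 genes in CPM (log axis), with 1 point per library, replicate 1 in orange and replicate 2 in blue. The dotted lines mark 3 counts in each library, and the open triangle marks the 0 counts of Mir211 in replicate 2. Mir31 and Mir203 stand at 554 CPM or more, Mir194-2, Mir204 and Mir192 between 30.7 and 42.3 CPM, and the last 4 genes at 4.93 CPM or less.

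Mir31, known from squamous epithelium and keratinocytes, led the list. It had 10237 counts in replicate 1 and 7282 in replicate 2, or 3605 and 3194 CPM, a mean of 3399 ± 291 CPM (SD, n = 2) that ranked 44th of all genes. Both libraries put it at a like place, rank 41 and rank 45. It made up 73.7% and 82.9% of the counts of the 9 genes. Mir31 lies on mm10 at chr4:88910557-88910662 on the minus strand, in an exon of the long noncoding RNA gene AL805899.1, its host transcript. The ratio of replicate 2 to replicate 1 was 0.886 (exact 95% interval 0.860 to 0.913). The exact binomial test on the counts, adjusted over all 369 genes tested by Benjamini-Hochberg, gave 8.55e-15 for this small difference, which is beyond counting error and under the 2-fold size that a pass required here. By log2(CPM + 1) over the 2 libraries, the genes nearest to Mir31 were Mir382 (3732 and 3114 CPM, distance 0.06), Mir423 (3624 and 2998 CPM, distance 0.09) and Mir433 (3358 and 4047 CPM, distance 0.36).

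Mir203, the keratinocyte differentiation miRNA, came second and was the member that differed most between the libraries among the 6 tested. It had 3312 counts in replicate 1 and 1262 in replicate 2, or 1166 and 554 CPM, a mean of 860 ± 433 CPM (SD, n = 2). Replicate 1 was the higher library, at rank 72 against rank 113. The level in replicate 1 was 2.11-fold that in replicate 2 (exact 95% interval 1.97 to 2.25), with an adjusted p of 3.51e-122 by the exact binomial test. That test sets these 2 libraries against each other and covers counting error only, and the lower bound of the interval lies under the 2-fold size. In the unstranded counts the difference was 1.998-fold and did not pass. Mir203 lies at chr12:112130880-112130955 on the plus strand and overlaps no other gene of GENCODE M21.

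Other measures also differed between the libraries, some in the direction of Mir203 and others in the opposite direction. The 9 skeletal and heart muscle miRNAs held 953 CPM in replicate 1 and 4.39 CPM in replicate 2. All 3 that could be tested passed as higher in replicate 1, and 3 were at 0 in both. The tested genes were Mir206 (1517 and 5 counts), Mir499 (818 and 4) and Mir208b (354 and 1). Each reached the mean count of 10 needed for a test only through replicate 1, so the direction was largely set by that filter. Reads aligned to several places are in none of these counts, so a count of 0 need not mean absence. The miR-200 family, epithelial miRNAs that maintain E-cadherin, summed to 98.2 and 46.1 CPM. Within it Mir200b (99 and 8 counts), Mir429 (37 and 5) and Mir200a (19 and 4), neighbours in a cluster, passed as higher in replicate 1. Each of these neighbours reached the mean count of 10 only through replicate 1, so the direction was largely set by that filter. Mir200c (110 and 77) and Mir141 (14 and 11) did not pass. Of all 369 tested genes, 10% passed as higher in replicate 1. Of the 4 white blood cell miRNAs, Mir223 passed as 7.57-fold higher in replicate 1 (377 and 40 counts) and 3 did not pass. The liver miRNA Mir122 was at 3721 and 2358 CPM, 1.58-fold higher in replicate 1 and under the 2-fold size. The erythroid list summed to 643 and 14488 CPM, mostly from Mir451a (469 and 13557 CPM). Replicate 2 was the higher library for 2 of its 3 genes, Mir144 and Mir451a, which passed, against 8.67% of all 369 tested genes in that direction. Mir486 (187 and 133 counts, ratio of replicate 2 to replicate 1 of 0.886) did not pass. The endothelial (43203 and 59463 CPM) and smooth muscle and fibroblast lists (23167 and 25516 CPM) also summed higher in replicate 2. So did the kidney list (33901 and 38961 CPM), nearly all of it Mir10a (33786 and 38860 CPM). Its genes Mir192, Mir194-2 and Mir204 were lower in replicate 2 (ratios to replicate 1 of 0.980, 0.921 and 0.758), with intervals that included equality. Its last gene, Mir194-1, had 1 and 3 counts. The neuroendocrine list was slightly higher in replicate 1 (4.28% and 4.01% of the gene counts). No gene of these lists passed. The part of these differences in the Mir203 result was not tested.

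Mir205, the basal-cell miRNA of skin, was close to the limit of detection. It had 5 counts in replicate 1 and 6 in replicate 2, or 1.76 and 2.63 CPM. The ratio of replicate 2 to replicate 1 was 1.49, with an exact 95% interval of 0.380 to 6.19, so at this depth a change of the size seen for Mir203 was not resolvable in either direction. Unlike Mir203, this skin marker stood at a handful of reads in both libraries. It lies at chr1:193507463-193507530 on the minus strand, in an exon of the noncoding gene 4631405K08Rik.

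**Figure D2:**
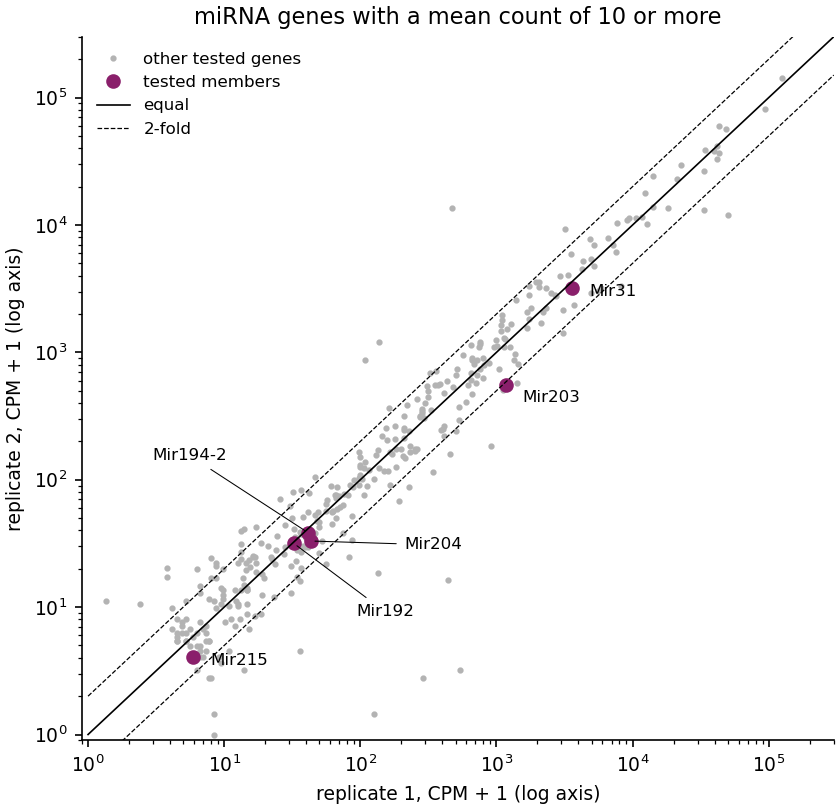
CPM + 1 of the 369 tested miRNA genes (mean count 10 or more), replicate 1 against replicate 2, on log axes; grey points are other genes, purple points the 6 tested members, the solid line marks equal levels and the dashed lines a 2-fold difference. Mir203 lies just past the dashed line on the side of replicate 1, and the other 5 lie between the dashed lines.

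The kidney and gut genes form a pair of clusters, each with a miR-194 gene beside a gene of the miR-192/215 seed. On chromosome 19 Mir194-2 (chr19:6264643-6264728) and Mir192 (chr19:6264844-6264932) lie on the plus strand with 115 bases between them, and neither overlaps another gene of GENCODE M21. On chromosome 1 Mir194-1 (chr1:185313319-185313385) and Mir215 (chr1:185313581-185313692) lie on the plus strand with 195 bases between them. There the noncoding gene 2010103J01Rik covers both, Mir194-1 in an intron and Mir215 in an exon, and both lie opposite an intron of Iars2, a mitochondrial isoleucyl-tRNA synthetase gene on the minus strand.

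The chromosome 19 cluster carried most of the assigned counts. Mir192 had 89 counts in replicate 1 and 70 in replicate 2, or 31.3 and 30.7 CPM, a mean of 31.0 ± 0.452 CPM (SD, n = 2). Its ratio of replicate 2 to replicate 1, 0.980 (exact 95% interval 0.706 to 1.35), was centred near equality, with room on both sides. Mir194-2 had 115 and 85 counts, or 40.5 and 37.3 CPM, a mean of 38.9 ± 2.27 CPM, with a ratio of 0.921 (0.687 to 1.23). Neither passed the exact binomial test, with adjusted p of 0.960 and 0.650. The balance of the cluster was alike in the libraries: Mir194-2 took 56.4% of the counts of the pair in replicate 1 (exact 95% interval 49.3 to 63.3) and 54.8% in replicate 2 (46.7 to 62.8).

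The chromosome 1 cluster was far lower. Mir215 had 14 counts in replicate 1 and 7 in replicate 2, or 4.93 and 3.07 CPM, and the ratio of 0.623 had an interval of 0.213 to 1.65 and an adjusted p of 0.471. Mir194-1 had 1 and 3 counts, at or under the 3 counts that a count of 0 allows, so no fold is given. Between the genes that share a seed, Mir192 took 86.4% of the summed counts of Mir192 and Mir215 in replicate 1 (exact 95% interval 78.2 to 92.4) and 90.9% in replicate 2 (82.2 to 96.3). The mature strands of these genes differ at 3 positions, and their hairpins have at most 12 and 11 bases in common with any other, so no read of 20 bases matches both exactly.

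The miR-194 genes cannot be compared in the same way. Mir194-2 took 99.1% and 96.6% of the counts assigned to either gene, but miR-194-5p is identical in both hairpins over its 22 bases. A read that lies within those 22 bases aligns to 2 places and is not in the counts of either gene. The values of Mir194-1 and Mir194-2 thus hold reads that differ between the hairpins, such as those of the 3p strands printed above, and give neither the level of miR-194-5p nor the share that each gene supplies.

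**Figure D3:**
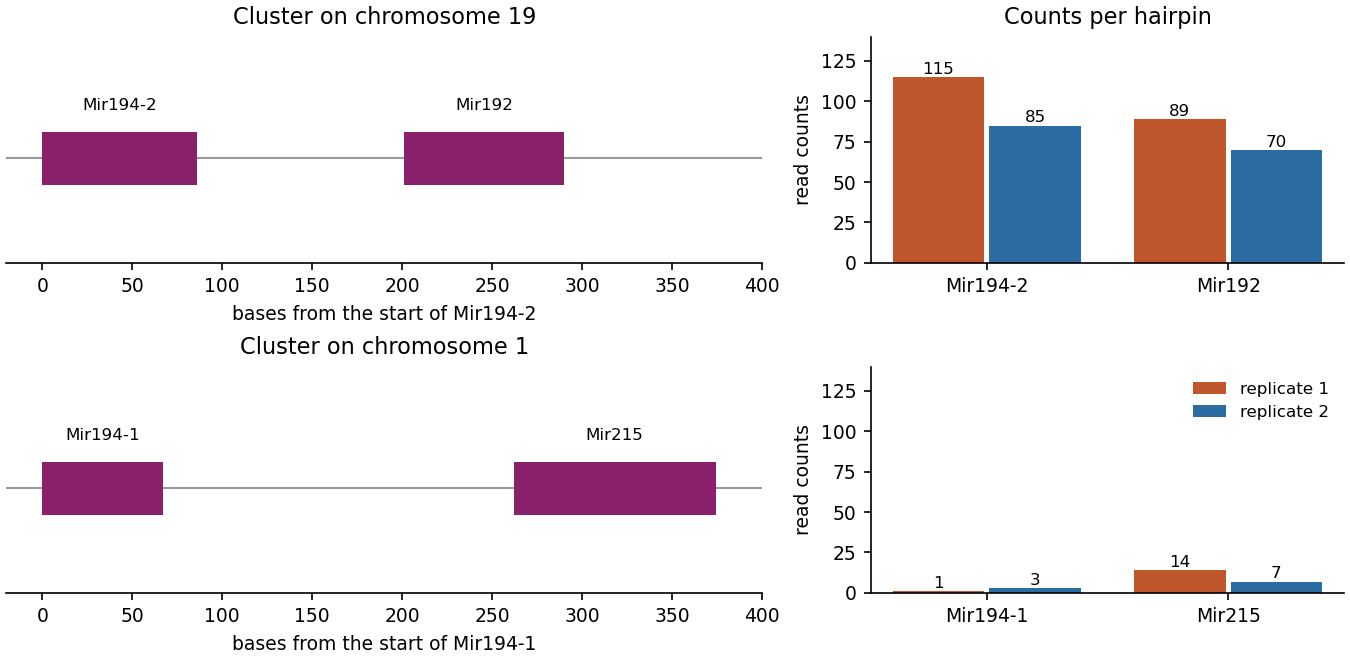
Left, the hairpins of the Mir194-2 with Mir192 and the Mir194-1 with Mir215 clusters drawn to scale, in bases from the start of the first gene of each; right, read counts per hairpin on the strand of the gene, replicate 1 in orange and replicate 2 in blue. Mir194-2 and Mir192 hold between 70 and 115 counts per library, and Mir194-1 and Mir215 between 1 and 14.

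The last pair, Mir204 and Mir211, lies in related host genes. Both hairpins are intronic on the strand of a cation channel gene of the melastatin TRP family, Mir204 (chr19:22750605-22750672, plus strand) in Trpm3 and Mir211 (chr7:64205806-64205911, plus strand) in Trpm1, a gene known from pigment cells and retina. Mir204 had 120 counts in replicate 1 and 73 in replicate 2, or 42.3 and 32.0 CPM, a mean of 37.1 ± 7.24 CPM (SD, n = 2). Replicate 1 was the higher, with a ratio of 0.758 (exact 95% interval 0.558 to 1.02) that did not pass, adjusted p = 0.105 by the exact binomial test. The adjusted p was 0.0353 with TMM scaling, 0.0494 with median-of-ratios scaling and 0.122 to 0.191 under the other alternatives run, and under each of them the difference stayed short of 2-fold. Mir211 had 2 counts in replicate 1 and 0 of 2280028 in replicate 2, which allows up to 1.32 CPM, and both values are within the 3 counts that a count of 0 allows. Mir204 thus held 98.4% (exact 95% interval 94.2 to 99.8) and 100% (95.1 to 100) of the summed counts. The hairpins have a longest common stretch of 17 bases, and the mature 5p strands differ at 1 position of 22. Whether the alignment allowed a mismatch is not given in the sources used here. A 5p read of either gene is told apart by that base alone.

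Set in order, the levels of the 9 genes fell into steps. Mir31 exceeded Mir203 by 3.09-fold in replicate 1 and 5.77-fold in replicate 2, and Mir203 exceeded Mir194-2 by 28.8-fold and 14.8-fold, both beyond the summed SDs. Mir194-2, Mir204 and Mir192 followed within 8 CPM of each other by their means, and neighbours among them did not differ beyond their SDs. The outer members of this step, Mir194-2 (40.5 and 37.3 CPM) and Mir192 (31.3 and 30.7 CPM), did not overlap. Mir194-2 and Mir204 exchanged their order between the libraries. Mir192 exceeded Mir215 by 6.36-fold and 10-fold, again beyond the SDs. Mir215 and Mir205 did not differ beyond their SDs, nor did Mir194-1 and Mir211, which exchanged their order. Mir205 exceeded Mir194-1 by slightly more than the summed SDs, on 5 and 6 counts against 1 and 3. The places of Mir194-1 and Mir194-2 hold for assigned counts only, which leave out reads within miR-194-5p.

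Between the replicates, 6 of the 9 genes had a mean count of at least 10 and could be tested. A gene passed at an adjusted p under 0.05 by the exact binomial test with a difference of at least 2-fold. Among all 369 genes tested, 18.7% passed in either direction, 10% as higher in replicate 1 and 8.67% as higher in replicate 2. Of the 6, Mir203 passed as higher in replicate 1 and 5 did not pass, a count near that background. With no size rule, 62.6% of all tested genes passed, and among the 6 those were Mir31 and Mir203. Taken as replicate 2 over replicate 1, the log2 ratio had a median of -0.29 over the 6 and 0.07 over all genes tested. All 6 log2 ratios were below 0 by these counts, that of Mir192 by 0.03, which in the unstranded counts turned to 0.03 above 0.

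**Figure D4:**
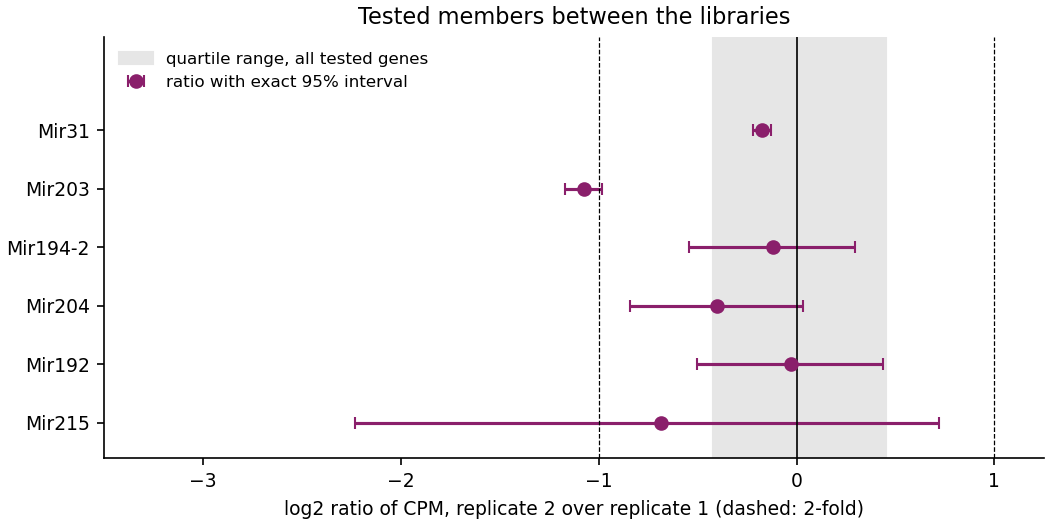
Log2 ratio of CPM, replicate 2 over replicate 1, for the 6 tested members, with exact 95% intervals as bars; the grey band spans the lower to the upper quartile of all 369 tested genes (-0.42 to 0.45) and the dashed lines mark 2-fold. Mir203 lies at -1.08 with an interval that crosses the dashed line, Mir31 has the narrowest interval, and the intervals of Mir194-2, Mir204, Mir192 and Mir215 include 0.

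For comparison, the list of other epithelial miRNAs held 14 genes: the miR-200 family, the sensory cluster Mir96, Mir182 and Mir183, the multiciliated-cell genes Mir34b, Mir34c, Mir449a, Mir449b and Mir449c, and Mir184. Together they held 0.375% and 0.355% of the gene counts, and 9 of 14 were detected, against 15.5% of all 2202 genes. Of 12 tested, 3 passed as higher in replicate 1 and 9 did not pass, against 10% of all 369 tested genes in that direction. The 3 are those of the Mir200b cluster given above, which met the filter only through replicate 1 and are neighbours, not separate results.

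Counts on the strand opposite the gene were also read, for Mir203 in particular. Mir203 had 147 counts on the opposite strand in replicate 1 and 75 in replicate 2, beside 3312 and 1262 on its own strand. The opposite strand thus took 4.25% (exact 95% interval 3.60 to 4.98) and 5.61% (4.44 to 6.98) of the counts at the hairpin, a mean of 4.93% ± 0.962 (SD, n = 2), and the intervals overlap. Both strands were lower in replicate 2. On the scale of gene counts the opposite strand was at 51.8 and 32.9 CPM, a ratio of replicate 2 to replicate 1 of 0.635 (exact 95% interval 0.475 to 0.845), beside 0.475 (0.444 to 0.507) on the strand of the gene. The other 8 genes had no count on the opposite strand in either library.

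GENCODE M21, the annotation behind the counts, has no miRNA gene opposite Mir203, but RefSeq has. It lists the gene Gm51289, with the synonym mir-203b, at chr12:112130887-112130946 on the minus strand, within the span of the Mir203 hairpin. Its mature strands are printed here because they lie face to face with those of Mir203.
miR-203b-3p: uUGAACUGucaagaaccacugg
miR-203b-5p: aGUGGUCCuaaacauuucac
miR-203-5p: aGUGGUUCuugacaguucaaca
miR-203b-3p overlaps the bases of miR-203-5p by 20, and miR-203b-5p those of miR-203-3p by 20. The seed of miR-203b-3p is not that of any other name in the RefSeq table. Counts per hairpin do not show which arm the reads came from.

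Opposite-strand counts at Mir203 were then set against those at other genes. Among the 2138 genes with no GENCODE miRNA gene opposite them, it made up 65.9% and 61.0% of all opposite-strand counts (223 in replicate 1 and 123 in replicate 2). The rest of those genes had 76 and 48 opposite-strand counts, or 0.00305% and 0.00250% of their counts on both strands. The next highest by counts were Mir708, with 17 and 11, and Mir34b, with 17 and 3. As a share of the counts at a hairpin, Mir708 was lower than Mir203, at 0.467% and 0.287%. Some genes with fewer opposite-strand counts were above Mir203 in at least 1 library, with no intervals given for them. Among these, Mir34b reached 8.95% and 2.33%, Mir5132 7.69% and 2.70% (3 and 1 counts), and Mir5620 5.56% and 13.3% (1 and 2 counts). Mir8105 had 6 and 7 counts on the opposite strand and 0 on its own. Genes that do have a GENCODE miRNA gene facing them reached shares of like size as well, among them Mir486 (8.33% and 5.00%, on 17 and 7 counts), Mir338 (1.90% and 7.40%, on 25 and 29), Mir337 (3.13% and 1.42%, on 99 and 54) and Mir24-1 (0.410% and 16.4%, on 1 and 23). There the opposite strand is that of another counted gene. The 17 and 7 counts at Mir486 equal the own-strand counts of Mir3107, the 25 and 29 at Mir338 those of Mir3065, and the 1 and 23 at Mir24-1 those of Mir3074-1. At Mir337 the 99 and 54 exceed the own-strand counts of Mir3544, 85 and 27, so that gene does not account for all of them. RefSeq placed a miRNA opposite 4 of the 2138 genes, Mir203 among them, and the other 3 (Mir3083, Mir9-2 and Mir9-3) had no opposite-strand count and at most 2 counts on their own strand.

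**Figure D5:**
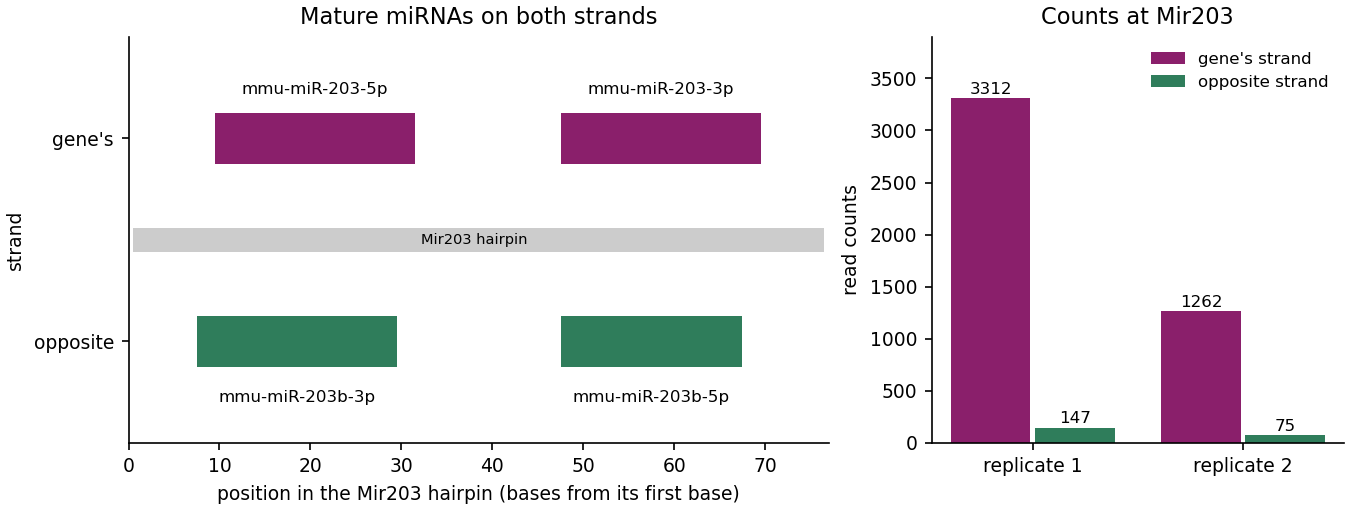
Left, the mature strands of Mir203 (purple, on the strand of the gene) and of the RefSeq gene with the synonym mir-203b (green, on the opposite strand), as positions in bases from the first base of the 76-base Mir203 hairpin; right, read counts at Mir203 on each strand by replicate. The mature strands of both genes cover nearly the same bases, and the opposite strand holds 147 and 75 counts beside 3312 and 1262.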

How the data were processed

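MicroRNA-seq libraries of total RNA from 2 adrenal samples were analysed. Per the files deposited with the tables, reads were placed on mm10 and counted on GENCODE M21. The aligner and counter are not given in the sources used here. The deposited values are raw read counts per hairpin gene by the authors, unstranded and on each strand, so the arms of a hairpin are summed. The first 4 rows name no gene, held 69.4% and 73.7% of the reads, and stayed out of totals. The strand column with the larger total was used. All 2202 identifiers matched GENCODE M21, and all 9 hairpins have the same coordinates in RefSeq GRCm38.p6.

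Counts were scaled to CPM. The 369 genes with 10 or more counts on average were compared between the libraries by exact two-sided binomial tests (scipy 1.17.1). Benjamini-Hochberg adjustment was over all of them, and a gene passed at an adjusted p under 0.05 and 2-fold. The procedure was tested on simulated counts that held counting error only. How often it passes genes under the spread between real replicates was not tested. No test over samples was run, since 2 samples allow no exact two-sided p below 0.5. Intervals are exact at 95% and, with no molecular identifiers stated, cover counting error only. Over the tested genes the chi-square statistic between the libraries was 203204 on 368 degrees of freedom, so they are not 1 library deposited again. Scaling by edgeR 4.0.16 (TMM) and DESeq2 1.42.0 (median of ratios), low-count filters, the counting column, the size rule and each replicate left out were alternatives. The rule for named genes took all members, the list of other epithelial miRNAs, the 3 genes nearest to the most abundant member and the marker lists. The members and lists were chosen with earlier results of these data known.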

Additional observations from a re-analysis of the deposited data

Results flagged for a closer look

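Counts on the strand opposite Mir203 came to 147 in replicate 1 and 75 in replicate 2. They stand in a column outside the main measurement and above the 3 counts that a count of 0 allows in each library. Outlying samples were not looked for, because the group holds 2.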

How the results depend on the processing

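The share of counts held by the 9 genes, 0.437%, was 0.512% with unstranded counts and 0.126% of all reads, and ranged from 0.385% to 0.489% with either replicate left out. The 5 detected genes became 7 at 3 or more counts in both libraries, 2 at 100 or more, and 5 to 6 with either replicate left out. The opposite-strand share of Mir203 ranged from 4.25% to 5.61%. All genes that passed between the replicates numbered 69, against 33 at a mean count of at least 100 (fewer genes tested), 120 at 1.5-fold and 231 without a size rule. Of the 9 genes, 1 passed, Mir203, against 0 with unstranded counts (log2 ratio -0.999, just under 2-fold) and 2 without a size rule. Mir203 passed under TMM and median-of-ratios scaling, both other filters on low counts and totals without muscle and blood cell miRNAs. The log2 ratio of Mir192, -0.030, turned to 0.026 with unstranded counts. Its own counts, 89 and 70, were the same in both columns, so only the totals differed. These were 2839732 and 2280028 on the strand of the gene and 2492422 and 1925204 unstranded. Over the alternatives, 31 of 33 log2 ratios of the tested members kept their direction and their side of the threshold, and the exceptions are those of Mir203 and Mir192 with unstranded counts. That count uses the rule of adjusted p and 2-fold together; the adjusted p of Mir204 alone moved from 0.105 to 0.0353 with TMM and 0.0494 with median-of-ratios scaling. No paired analysis was possible because the labels give 1 group. Depth limits Mir215, Mir205, Mir194-1 and Mir211, each with at most 14 counts in a library.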
